A study of Danio rerio with 57 samples.

Results

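Regions marked by H3K9me3 at 4 h post fertilisation (hpf) that lay across at least 2 separate regions of the 3 hpf list were examined in zebrafish embryos, and are called fused regions here. They were selected on the deposited positions at 3 and 4 hpf alone. A fused region is a 4 hpf region on chromosomes 1 to 25, narrower than 10000 bp, that overlaps by 1 bp or more at least 2 regions of the 3 hpf list after touching 3 hpf regions have been merged. There were 1413 of them among 48860 chromosomal 4 hpf regions below that width, or 2.89%. A further 19807 of these regions lay over a single 3 hpf region and 27640 over none, and 277 wider 4 hpf regions also crossed 2 or more. The 4 hpf regions were taken as listed, and touching ones were not merged to set outlines or widths. Of the fused regions, 162 (11.5%) touched another 4 hpf region, and 30 lay in a touching block of 10000 bp or more. The word fused describes the outlines in 2 lists of pooled embryos. It does not follow a locus in one embryo.

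The assay was CUT&RUN: a nuclease tethered to a bound antibody cuts out the DNA around marked nucleosomes in intact nuclei. All embryos were whole embryos of the AB strain, with every cell type together, taken in the time course at 2, 2.5, 3, 3.5, 4 and 4.5 hpf with an H3K9me3 antibody from Abcam. The labels also name an added E. coli DNA spike-in. Libraries for H3K9me3 number 2 at 2 hpf and 3 at every later time, but the authors deposited 1 list of regions per time point, so no value below has a replicate error and no test was possible. The IgG libraries were not analysed here, and read depth is unknown.

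H3K9me3, trimethylation of lysine 9 on histone H3, is the mark of heterochromatin, the compact chromatin that keeps repeats and transposons silent. It can spread along chromatin because HP1 proteins bind the mark and help to recruit the methyltransferases that place it on neighbouring nucleosomes, and marked sites that lie close together can in this way come to form one domain. In zebrafish the mark is built up during the blastula stages, around the activation of the zygotic genome. The series asks how H3K9me3 is first placed and then reinforced in the early embryo.

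Lists of different times differ in more than the mark. The lists grew from 7516 regions at 2 hpf to 51200 at 4 hpf and then held 33704 at 4.5 hpf. At 4.5 hpf the list stood apart on 6 chromosomes: the median region signal was 562.5 to 731 on chromosomes 1 and 10 to 13 against 102.4 to 191.6 on the 19 chromosomes outside the set, and the later stretch of chromosome 14 held 8 regions where the 4 hpf list held 1148. The main values at 4.5 hpf are therefore given on 25 and on 19 chromosomes. Few neighbouring regions lay less than 500 bp apart, 617 of the 10815 gaps under 10 kb at 3 hpf. Whether the peak caller set that spacing was not tested.

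Fused regions were mostly pairs. Of the 1413, 1339 (94.8%) joined 2 pieces, 67 joined 3 and 7 joined 4, a piece being a merged 3 hpf region. Their median width was 4600 bp, with quartiles of 2926 and 6389 bp and a range from 449 to 9988 bp, against a median of 1745 bp for regions over a single 3 hpf region and 744 bp for regions over none. Width rose with the number of pieces, from a median of 4484 bp for 2 to 6095 bp for 3 and 8529 bp for 4; a region across more pieces is wider by construction. Nearest to the width limit, members of 9984 and 9988 bp were taken in and 2 fused regions of 10013 bp were left out. Nearest to the overlap limit, 22 members overlapped a piece by no more than 10 bp, and 12 regions over a single piece had a second 3 hpf region within 10 bp.

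The 2907 pieces were near the usual size of 3 hpf regions, with a median of 924 bp against 848 bp for all 29303. Partners were often unequal: the widest piece of a member was 1.72 times the narrowest at the median, and 569 members (40.3%) held a piece at least 2 times as wide as another. Most pieces, 2172 or 74.7%, lay wholly inside the 4 hpf outline. Pieces were also mostly of the class that the authors' region names call secondary, a term the sources used here do not explain. The pieces held a region named primary in 16.4% of cases against 21.4% for all merged 3 hpf regions. Counted by member, 70 had only primary pieces, 336 had some and 1007 had no primary piece at all. At 4 hpf 655 of the fused regions (46.4%) were themselves named primary, against 41.2% of like-width regions over a single 3 hpf region. With only primary regions kept in every list, 8 fused regions were found, all of them among the 1413. The authors' p-value was under 0.05 for 424 members (30.0%), against 27.1% at like width. On 19 chromosomes the shares were 29.2% and 27.0%. For class and p-value, the share over all 4 hpf regions under 10 kb is not given here.

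The 1494 gaps filled between 3 and 4 hpf were short. Their median was 915.5 bp, about the width of a piece, with quartiles of 424.5 and 1528.75 bp. The widest was 6652 bp, 54 gaps reached 3000 bp, and 399 (26.7%) were under 500 bp. In 377 members every gap was under 500 bp, and 1036 members had a gap of at least that width. Filled gaps made up 22.1% of a member at the median and more than 50% of 133 members, and in 366 members of 2 pieces the gap was wider than either piece. Summed over all members, 6.67 Mb in all, the pieces gave 52.6% of the bases, the gaps 24.1% and the flanks outside the outermost pieces 23.3%. New flank lay on both sides of 802 members (56.8%), and 128 had none. Outward growth was not particular to fused regions. Like-width regions over a single 3 hpf region were 59.4% covered at 3 hpf. Their uncovered bases were all flank, a larger share than the 23.3% in members.

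Most of these gaps were already closed at 3.5 hpf, a list the rule did not use. A gap was counted as joined when one merged 3.5 hpf region overlapped the pieces on both its sides. This held for 1045 gaps (69.9%), and 974 members (68.9%) had all their pieces under one 3.5 hpf region. The remaining 439 members came together only at 4 hpf. Among all 10815 gaps under 10 kb in the 3 hpf list, 14.6% were joined at 3.5 hpf. The gaps of members were all closed at 4 hpf by the rule, so their share says only when they closed. The 14.6% covers closure at 3.5 hpf among all gaps, many of them wider than those of members. Of the 10815 gaps, 21.5% were joined at 3.5 or 4 hpf. Of all gaps under 2 kb, 38.1% were joined at 3.5 hpf. On the 19 chromosomes the member share was 69.1%.

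Narrow gaps were joined from side to side earlier. The median gap joined by 3.5 hpf was 791 bp and the median gap joined only at 4 hpf was 1238 bp. The share joined by 3.5 hpf was 81.0% below 100 bp, 81.7% from 100 to 500 bp, 74.5% from 500 to 1000 bp, 61.5% from 1500 to 2000 bp and 33.3% from 3000 to 4000 bp. The 15 gaps of 4000 bp or more departed from this order, with 73.3% joined. The share of gap bases covered at 3.5 hpf varied less with width. It was 83.8% below 100 bp, 88.2% from 100 to 500 bp and 83.2% from 500 to 1000 bp. From 1500 to 2000 bp it was 83.8%, from 3000 to 4000 bp 74.6%, and in the 15 widest gaps 94.4%. Members of 3 pieces often closed one gap before the other: at 3.5 hpf 28 of the 67 had both gaps joined, 31 had 1 and 8 had none. Of the 7 members of 4 pieces, 4 had all 3 gaps joined at 3.5 hpf.

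Most late gaps were partly covered at 3.5 hpf. Of the 449 not yet joined, 344 were partly covered, 1 was fully covered and 104 (23.2%) had no covered base, and 53.9% of the bases of all 449 were marked. Regions that also overlapped a piece gave 95.2% of that coverage, while 15 gaps held a separate region that touched neither side. In 303 of the 449 gaps at least 1 of the pieces beside the gap was not in the 3.5 hpf list, and in 146 both were there and still apart. Over all members, 3.5 hpf regions covered 88.0% of piece bases, 82.3% of gap bases and 60.0% of flank bases.

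**Figure D1:**
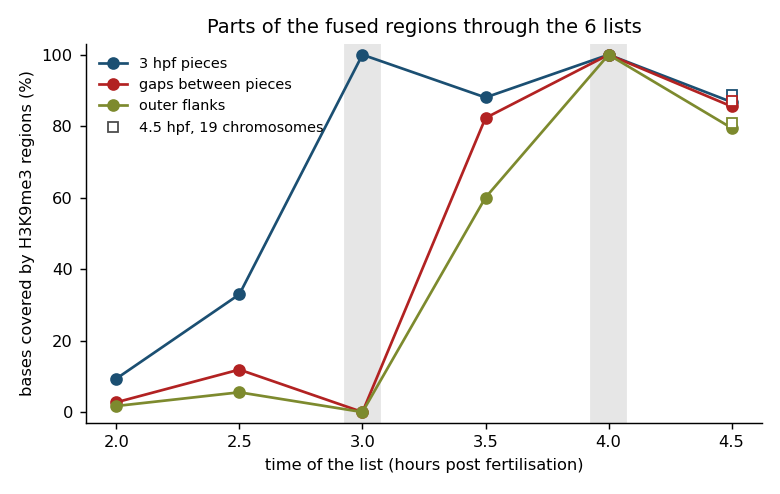
Share of the bases of the 1413 fused regions that H3K9me3 regions covered in each list, for the 3 hpf pieces, the gaps between them and the outer flanks, plotted against hours post fertilisation. Grey bands mark 3 and 4 hpf, where the rule fixes the values at 0% or 100%. At 3.5 hpf gaps stand at 82.3% and flanks at 60.0%. At 4.5 hpf pieces stand at 86.7% and gaps at 85.5%, and open squares give 88.7% and 86.9% on 19 chromosomes.

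The lead of gaps over flanks at 3.5 hpf was present at every distance from a piece. Within 250 bp of the nearest piece, 83.4% of gap bases were covered and 69.0% of flank bases. At 1000 to 2000 bp the values were 79.5% and 52.7%, a small difference between the bands in gaps and a drop in flanks. The flanks of regions over a single 3 hpf region, weighted to the same widths, lay between them, at 79.1% within 250 bp and 61.4% at 1000 to 2000 bp. A base in a gap lies between 2 pieces and a base in a flank beside 1, and the members were chosen for gaps closed at 4 hpf. Gap bases at 1000 to 2000 bp from a piece came only from gaps wider than 2000 bp, so distance and gap width were not separated. At 4.5 hpf coverage within 250 bp was 84.6% in gaps, 80.4% in the members' flanks and 82.5% in the single-region flanks, and 92.9%, 80.4% and 82.2% at 1000 to 2000 bp. On 19 chromosomes the 4.5 hpf values were 86.0%, 82.1% and 84.4% within 250 bp and 94.99%, 82.5% and 82.9% at 1000 to 2000 bp.

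**Figure D2:**
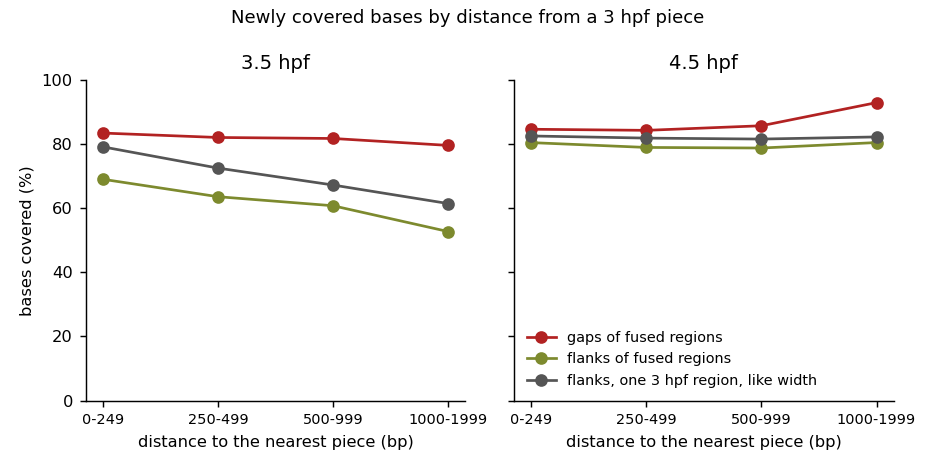
Share of bases covered at 3.5 hpf (left) and 4.5 hpf (right) against distance in bp to the nearest 3 hpf piece, for gaps and flanks of fused regions and for flanks of like-width regions over one 3 hpf region, on 25 chromosomes. At 3.5 hpf the gap line falls from 83.4% to 79.5% and the members' flank line from 69.0% to 52.7%; at 4.5 hpf the lines lie between 78.7% and 92.9%.

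The gaps of members are a subset of all gaps between neighbouring 3 hpf regions, and closure in that whole set followed width closely. At 4 hpf 72.4% of gaps under 500 bp were joined, 57.2% of those from 500 to 1000 bp, 38.9% from 1000 to 1500 bp, 16.9% from 2000 to 3000 bp and 0.661% from 7500 to 10000 bp. Of the 3508 gaps under 2 kb, 1653 (47.1%) were joined at 4 hpf. This share depended on which regions were kept. It was 16.8% among regions scored at or above the median of each list. Among primary regions it was 3.20%, and among regions with a p-value under 0.05 it was 0%. Each filter left fewer regions and so a different set of gaps under 2 kb, numbering 1045, 219 and 76. Of the unfiltered gaps under 2 kb not joined at 4 hpf, 774 had both sides present and apart. In 771 one side had left the list and in 310 both had. In all, 2113 gaps under 10 kb were joined at 4 hpf: the 1494 of the members, 413 under a single region of 10 kb or more and 206 only through 4 hpf regions that touch. Closure was not always kept. Of 1576 gaps joined at 3.5 hpf, 214 (13.6%) were not joined at 4 hpf.

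**Figure D3:**
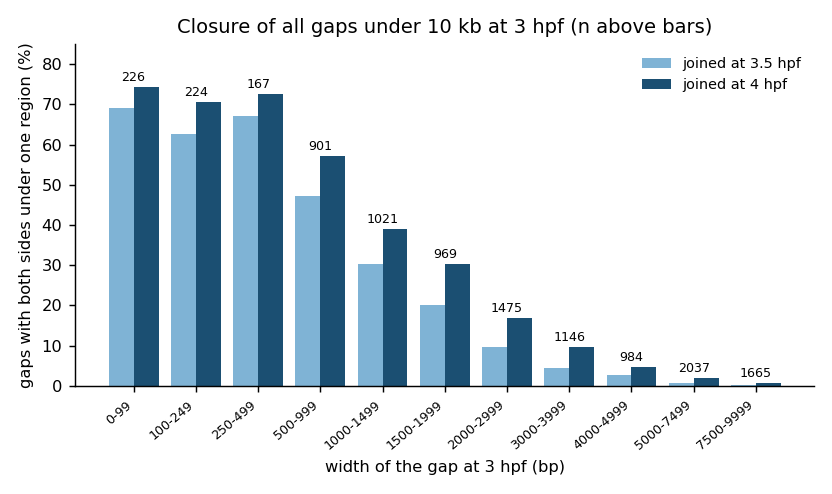
Share of all 10815 gaps under 10 kb between neighbouring 3 hpf regions whose sides lay under one region at 3.5 hpf (light) or 4 hpf (dark), by gap width in bp, with the number of gaps above each pair of bars. Closure at 4 hpf falls from 74.3% below 100 bp to 0.661% at 7500 to 10000 bp.

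Most pieces were absent from each earlier list taken alone. The 2.5 hpf list overlapped 42.9% of them and the 2 hpf list 16.0%, against 40.4% and 15.2% of all merged 3 hpf regions. Single pieces under regions over a single 3 hpf region were overlapped at 2.5 hpf in 47.5% of cases. Among the 1339 pairs, both pieces were seen at 2.5 hpf in 310 (23.2%), 1 in 543 (40.6%) and neither in 486 (36.3%). The wider partner was the one seen more often, in 52.9% of pairs against 34.0% for the narrower. Pairs with both pieces seen at 2.5 hpf were joined by 3.5 hpf in 76.5% of cases, pairs with 1 in 69.8% and pairs with neither in 67.1%, with median gaps of 876.5, 1044 and 760.5 bp.

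Some gaps open at 3 hpf had been covered before. One region at 2.5 hpf overlapped all the pieces of 101 members (7.15%), and at 2 hpf this held for 19. At 2.5 hpf 11.9% of gap bases and 5.53% of flank bases were marked. The 106 gaps bridged at 2.5 hpf were narrow, with a median of 392 bp, and 87.7% of them were bridged again at 3.5 hpf against 68.6% of the rest. Of all member gaps, 81.0% below 100 bp and 81.7% from 100 to 500 bp were joined at 3.5 hpf. Early bridging and gap width were not separated. For these members the outline at 3 hpf was the interrupted one. Whether a gap at 3 hpf reflects absence of the mark or a call that fell below the threshold was not tested.

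Compared with regions of like width, fused regions were less covered by the early lists. The sign of the overlap difference at 2.5 hpf changed under a filter on score. The comparison set is the 19807 regions over a single 3 hpf region, weighted to the widths of the members in bins of 250 bp, which gave medians of 4600 and 4598 bp. At 2.5 hpf 65.2% of fused regions were overlapped against 70.9% at like width, with 26.4% over all 4 hpf regions under 10 kb. The fused share was lower on 21 of 25 chromosomes. When every list kept only regions scored at or above its median, 179 regions were still fused, all of them among the members. The fused minus like-width difference was then 1.03 points. With only primary regions kept it was -10.3 points, on 8 fused regions. The 2 hpf shares and base coverage were not recomputed under these filters. In the full lists the shares at 2 hpf were 29.7% and 35.6%. By bases the differences were wider at 2.5 hpf, 21.5% covered against 32.3%, and smaller at 3.5 hpf, 80.1% against 83.1%. At 3 hpf, where the rule requires uncovered gaps, 52.6% and 59.4% were covered. Fused regions lay under 2 or more regions at 2.5 hpf in 21.1% of cases against 14.2%.

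The fused regions largely persisted at 4.5 hpf. Of the 1413, 1208 (85.5%) lay under a single 4.5 hpf region, 57 (4.03%) under 2, and 148 (10.5%) under none. On 19 chromosomes 92 of 1157 members lay under none. Some part of 89.5% of members was found again, against 89.4% at like width and 59.1% of all 4 hpf regions under 10 kb. On 19 chromosomes these shares were 92.0%, 91.6% and 60.2%. Persistence thus differed by little from that of equally wide regions and stood above the list as a whole, in which most regions are narrow. Members absent from the 4.5 hpf list were narrower, with a median of 2666.5 bp against 4764 bp for those found again. Place on the 6 chromosomes also moved with it: 56 of their 256 members were absent, including all 29 on the later stretch of chromosome 14.

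Filled gaps were kept almost as well as the pieces beside them. At 4.5 hpf 85.5% of gap bases, 86.7% of piece bases and 79.5% of flank bases were covered, and on 19 chromosomes 86.9%, 88.7% and 80.9%. Of the 1494 gaps, 1161 (77.7%) were still bridged by one region, and on 19 chromosomes 78.7%. Only 44 counted as reopened, with the pieces on both sides present under different 4.5 hpf regions. That count does not require the break to lie in the gap. A further 140 had lost a piece on one side and 149 the pieces on both. Gaps joined by 3.5 hpf were still bridged in 82.5% of cases and gaps joined only at 4 hpf in 66.6%. The order was the same in each of the gap width classes, for example 84.2% and 66.0% for gaps of 500 to 1000 bp. On 19 chromosomes the shares were 84.1% and 66.1%.

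Fused regions divided again more often than like-width regions, though rarely. At 4.5 hpf 4.03% lay under 2 regions against 1.98%, with 0.569% over all 4 hpf regions under 10 kb. On 19 chromosomes the shares were 4.75% and 2.40%. The difference on 25 chromosomes, 2.06 points, was 1.03 points when most of each piece had to lie inside the 4 hpf region. The fused share was higher on 15 chromosomes and lower on 8. In 44 of the 57 divided members the pieces on the 2 sides of a 3 hpf gap lay under different 4.5 hpf regions, as in 43 of the 55 on 19 chromosomes. The breaks themselves, with a median of 704 bp, lay wholly inside a 3 hpf gap in 26 members and mostly inside one in 35, and in 16 they held no gap base. Of all break bases, 62.0% lay in gaps, 27.0% in pieces and the rest in flanks. The median reopened gap was 1435 bp, against 925 bp for gaps still bridged, and 28 of the 44 had closed only at 4 hpf. Wide gaps as a whole were not kept less well. Of gap bases, 77.1% were covered at 4.5 hpf in gaps of 100 to 500 bp and 94.5% in gaps of 3000 to 4000 bp. Gaps joined by 3.5 hpf were still bridged in 78.5% of cases below 500 bp and 91.7% from 3000 bp on. For gaps joined only at 4 hpf these shares were 58.1% and 80.0%. Covered bases at 4.5 hpf were 84.8% in fused regions and 86.7% at like width, with the fused value lower on 20 of 25 chromosomes. On 19 chromosomes the values were 86.4% and 88.4%, and the fused value was lower on 15. Members covered over at least 90% of their length made up 64.9% against 69.7% at like width, and 65.2% against 70.0% on 19 chromosomes. A further 124 members (8.78%) had been joined with another 4 hpf region by 4.5 hpf, against 9.20% at like width, and on 19 chromosomes 6.05% against 5.62%.

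**Figure D4:**
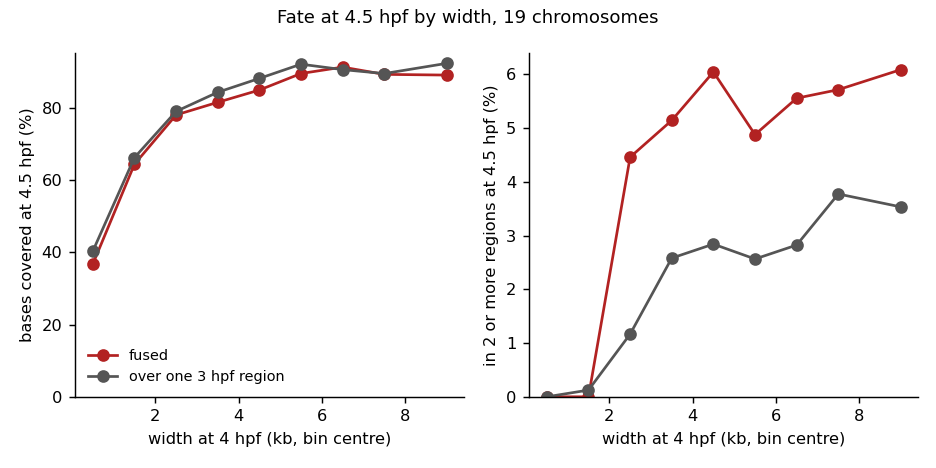
Share of bases covered at 4.5 hpf (left) and share of regions lying under 2 or more 4.5 hpf regions (right), against width at 4 hpf in kb, for fused regions and regions over one 3 hpf region on the 19 chromosomes. Coverage of fused regions rises from 36.8% below 1 kb to 89.1% at 8 to 10 kb, and the divided share of fused regions lies above the other line from 2 kb on, at 6.09% against 3.53% in the widest class.

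Individual members show how the steps differ. At chr4:55205898-55215557 (9660 bp), on the long arm of chromosome 4, 4 pieces of 273, 1118, 500 and 746 bp lay apart at 3 hpf with gaps of 761, 4407 and 1097 bp. All 3 gaps were covered at 3.5 hpf, and at 4.5 hpf the region was part of one of 22505 bp. Another member on the same arm, chr4:64821868-64830947, had no region at 2 or 2.5 hpf, 4 pieces at 3 hpf and 55.5% of its length covered at 3.5 hpf, and was wholly covered at 4.5 hpf. At chr12:15252099-15260627, on one of the 6 chromosomes and with 4 pieces, 1 region at 3.5 hpf lay over the first 3 pieces. A separate 3.5 hpf region lay within the last piece, just outside the 4 hpf outline. The member at chr16:13256354-13262915 went from no region at 2.5 hpf to 4 pieces and then 1 region over 93.5% of it at 3.5 hpf.

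The widest gaps closed in different ways. At chr4:70671144-70681071 the gap of 6652 bp was 77.0% covered at 3.5 hpf, still as 2 regions. At chr24:11733034-11741148, 48.5% of the member was covered at 2.5 hpf, and 98.4% of its gap of 5639 bp was covered at 3.5 hpf. The gap of 5604 bp at chr5:254183-263793, in the outer 1 Mb, that of 5545 bp at chr16:19339495-19347646 and that of 4907 bp at chr22:22874024-22882353 were all fully covered at 3.5 hpf. A region at 2.5 hpf already overlapped each of these 5 gaps, and all 5 were fully covered at 4.5 hpf.

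The lowest p-values of the authors at 4 hpf among members belonged to regions of primary class. They were 2.6271e-06 at chr13:49297419-49302563 (5145 bp, gap 703 bp), 2.93601e-06 at chr16:28822231-28824679 (2449 bp, gap 67 bp) and 4.0742e-06 at chr17:50191773-50196889 (5117 bp, gap 259 bp). All 3 were joined at 3.5 hpf and lay under one region at 4.5 hpf. The sources used here do not state what the deposited p-value tests.

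Among members cut again, the widest was chr23:46097196-46106831 (9636 bp), with 3 pieces and gaps of 2197 and 1391 bp. It was 2 regions at 3.5 hpf, 1 at 4 hpf and 2 at 4.5 hpf, when 71.0% of its gap bases were covered. Its break of 1039 bp lay wholly in the narrower gap, which 1 region had spanned at 3.5 hpf. The member at chr20:50582523-50591849 had been 1 region at 3.5 hpf and had a break of 820 bp at 4.5 hpf, of which 340 bp lay in its gap of 657 bp and 480 bp in a piece. At chr5:2409345-2418381, which had 4 pieces, 2 regions were present at 3.5 hpf and 2 at 4.5 hpf, with 163 bp of a break of 597 bp in a gap. An early bridge is shown by chr8:38878602-38888357, where one region covered 81.3% of the member at 2.5 hpf, 2 pieces lay 909 bp apart at 3 hpf and 1 region covered all of it at 3.5 hpf. At chr7:72367343-72377084, bridged at 2.5 hpf, the gap was 3801 bp at 3 hpf and there were 3 regions at 3.5 hpf. At chr5:145144-154203 the gap of 1410 bp was 92.1% covered at 3.5 hpf, when 46.4% of the member was covered, and 70.7% of the member was covered at 4.5 hpf.

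**Figure D5:**
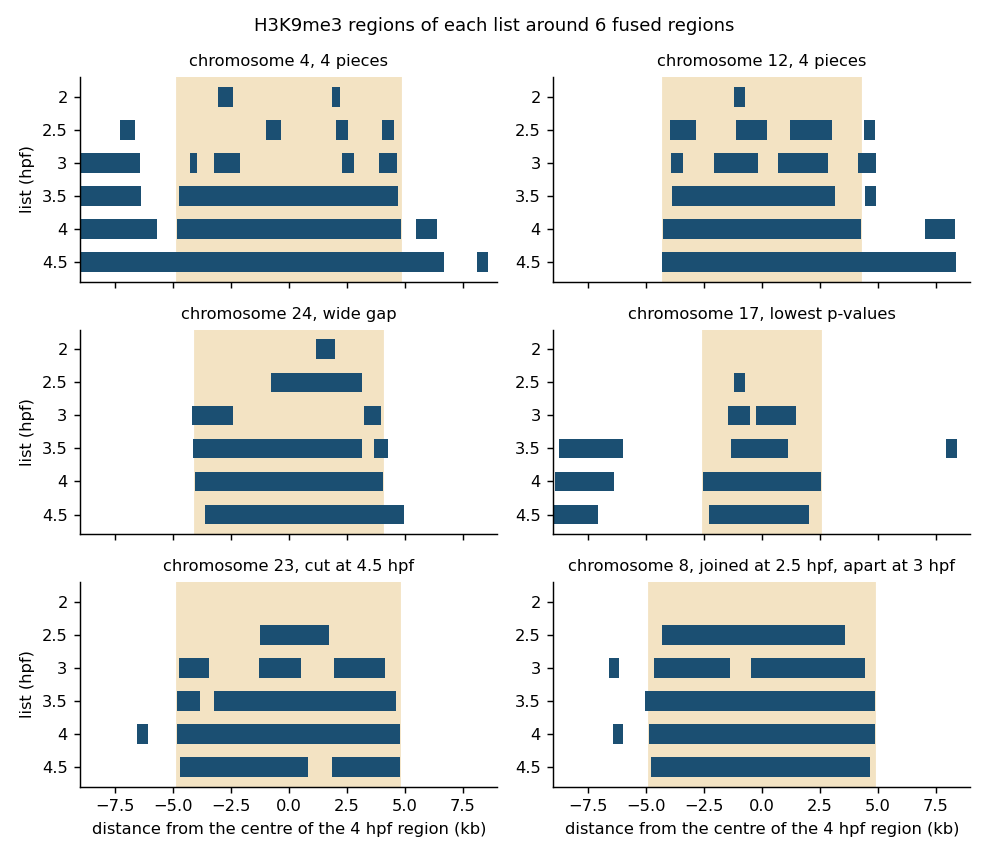
Regions of the 6 lists (bars, one row per list in hpf) around 6 of the named fused regions, against distance in kb from the centre of the 4 hpf region, whose span is shaded; bars are cut at the edges of the panels. Within the shaded span of each panel, separate bars at 3 hpf become a single bar at 4 hpf, as the rule requires. Other 4 hpf bars lie outside the span in some panels. In the chromosome 23 panel 2 bars are present again in the span at 4.5 hpf.

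Fused regions were spread over all chromosomes. They numbered 31 on chromosome 11 and 148 on chromosome 4, the extremes, and made up 4.70% and 11.5% of the 4 hpf regions there that lay over any 3 hpf region. Given the widths of the regions on each chromosome, the observed number was 0.747 times the number that the genome-wide share at each width gives on chromosome 6 and 1.22 times on chromosome 24, with 1.13 on chromosome 4. The long arm of chromosome 4, taken from 28 Mb on, is known as a repeat-rich, late-replicating arm and held 132 members. It accounted for 9.34% of fused regions against 8.02% at like width. In the outer 1 Mb of chromosomes the shares were 9.27% and 8.82%, with 7.07% of all 4 hpf regions under 10 kb, and the sign of this difference changed with the overlap and width limits.

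The surroundings of members at 4 hpf were close to those of like-width regions. The nearest other 4 hpf region lay 4686 bp away at the median, against 4644 bp at like width, and other 4 hpf regions covered 10694 bp within 50 kb on each side against 11191 bp. Other 3 hpf regions covered 4396 bp there against 5213 bp. The median distance from one fused region to the next was 200426 bp, and 449 (31.8%) had another within 100 kb. They fell in 724 of 1361 windows of 1 Mb, and the fullest windows, chr4:77000001-78000000 and chr7:1000001-2000000, held 9 each. The authors' signal, of unknown unit and rising with width, had a median of 465.6 in fused regions and 536.3 at like width at 4 hpf. Within the primary class the values were 321.9 and 336, and within the secondary class 671 and 749.5. The deposited score went the other way, with a median of 198 in fused regions and 3 at like width. It was not compared within the classes, and the primary share differed, at 46.4% and 41.2%.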

How the data were processed

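The authors deposited a single region list for each of 6 time points, without a header. Judged by their values, the deposited columns give a position, a region name, a score used here to rank regions, a signal of unstated unit and a p-value whose test the sources used here do not state. HOMER, bedtools, Picard, SAMtools, STAR and Trim Galore are named, with no role, per the submitters' processing notes. The libraries behind each list, the way replicates were combined and the genome build were not given in the sources used here. Each list was treated as pooled, with unknown depth.

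Touching regions were merged for overlaps with Python 3.11.15, NumPy 2.4.6 and pandas 2.3.3, and figures were drawn with matplotlib 3.10.9. Pieces are merged 3 hpf regions under a member, gaps lie between pieces, and flanks lie outside them. Like-width values weight regions over a single 3 hpf region to the members' widths in 250 bp bins. Chromosome lengths are the furthest region ends. Unplaced scaffolds were left out. The steps were tested on simulated lists with planted fusions. Positions follow the lists and count from 1. No annotation of that build was at hand, so no gene or sequence is given. Named members are the 5 with most pieces, the 5 with the widest gap, the 3 with the lowest p-value, the 3 widest whose pieces beside a 3 hpf gap lay under different 4.5 hpf regions, the 3 widest bridged at 2 or 2.5 hpf, and those nearest the width limit. The members, lists and comparisons were chosen with earlier results of these data known.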

Additional observations from a re-analysis of the deposited data

Results flagged for a closer look

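Fused regions also occurred on the unplaced scaffolds, which no comparison here uses. Of 1808 scaffold regions at 4 hpf, 55 crossed at least 2 separate 3 hpf regions, and 865 lay over any 3 hpf region. On the 25 chromosomes 1413 of 48860 regions under 10 kb (2.89%) crossed at least 2, and 1690 of 49392 did so with no width limit.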

How the results depend on the processing

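In all, 8 results were recomputed under 7 to 15 other settings each, from 17 settings, 1 of them (matching on width and on coverage at 3 hpf) chosen after seeing the data. Of 96 values, 65 kept their sign and moved by less than a set limit. The limit was 50% of the width of the exact 95% binomial interval of the fused share, or 1.5 times for counts. It treats the regions of pooled lists as separate draws, so it sorts shifts by size and is not a replicate error. The number of fused regions was 179 in the best scored portion of each list, 8 among primary regions, 0 with p-values under 0.05 (where only the closure of gaps under 2 kb could also be computed, at 0%) and 798 with a 5000 bp limit. Members joined by 3.5 hpf came to 72.4% with most of each piece inside, 64.0% with pieces within 500 bp merged, 72.1% at best scores, 87.5% among primary regions, 66.5% with no width limit and 73.3% when gaps needed 90% coverage. Closure of gaps under 2 kb was 45.2% and 41.4% with pieces within 100 and 500 bp merged, 16.8% at best scores and 3.20% among primary regions. Differences in points, fused minus like width, follow. Covered share at 4.5 hpf was -6.20 at best scores, -17.3 among primary regions and 6.93 without matching on width. The divided share was -0.236 among primary regions and 3.20 without matching. In the settings within its limit it ranged from 1.03 with most of each piece inside to 2.99 with pieces within 500 bp merged, against 2.06 in the main setting. Overlap at 2.5 hpf was 1.03 at best scores, -10.3 among primary regions and 16.4 without matching. The chromosome end share was -0.00904 with 50 bp overlap, -0.860 with most of each piece inside, -11.2 among primary regions and -0.0493 with no width limit. Gap minus piece coverage at 4.5 hpf was 0.0179 with most of each piece inside, -3.93 at best scores, -5.68 among primary regions and -3.15 with the 5000 bp limit. Without matching, narrow regions enter the comparison. Where 8 members were left, shares move in large steps. The other causes were not tested. Leaving out the 6 chromosomes, or chromosome 4, moved no result past its limit. Pooled lists give no replicate spread, unknown depth limits what absence from a list means, and few fused regions were found without secondary regions.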
